A study of Homo sapiens with 6 samples.

Results

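The 10 rows described here lie at loci named in studies of age-related macular degeneration. They were taken by symbol from a count table of 59087 rows: SLC16A8, NPLOC4, TSPAN10, VTN, MMP9, SLC12A5-AS1, ADAMTS9, ADAMTS9-AS1, ADAMTS9-AS2 and CNN2. RNA sequencing had been done on HEK293T, a human cell line derived from embryonic kidney, in 3 groups of 2 libraries each: the THUMPD2 knockout line KO1, the THUMPD2 knockout line KO2, and the WT line without the knockout. THUMPD2 encodes a methyltransferase of the U6 small nuclear RNA. The labels give no agent, time point or clone history, each knockout is a single line, and nothing in the labels says that 2 libraries of a line came from separate cultures, so each p-value rests on library-to-library spread alone, which may be technical.

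Macular degeneration is a loss of the central retina in which the retinal pigment epithelium, the cell layer that feeds and clears the photoreceptors, fails. Genome-wide association has tied its risk to complement regulation, to turnover of the extracellular matrix beneath the epithelium, to lipid transport and to loci whose causal gene is unsettled. HEK293T is not a retinal cell, and the rows are described here as they stand in this line. The rows RPE65, an enzyme of the visual cycle, and TYR, an enzyme of pigment synthesis, held at most 2 reads in any library. Other rows of the same marker list held more. Of 17 pigment epithelium markers, 5 rows, PMEL and SERPINF1 among them, held enough reads to be tested and are given below.

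Total counts were 7414339 to 8391143 reads per library, far fewer than the read depth in the design text. The row of the targeted gene checks nothing: THUMPD2 held 3 and 0 reads in KO1, 0 and 1 read in KO2, and 1 and 2 reads in WT. The library kit keeps strand, and the strand setting of the counting is not given in the sources used here. Of 1311 antisense rows over a protein-coding gene, 1146 (87.4%) held more reads per exonic base than the gene itself, where both rows together averaged at least 100 reads. A row named for a gene may therefore hold reads of the opposite strand, so each change below is a change of the row, and the part of strand in it was not tested. In bulk RNA, fewer cells with a transcript and less of it per cell cannot be told apart.

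At 2 loci the exons of a gene of the group lie over exons of an antisense row of the group, so the same bases feed one row or the other by strand alone. The coding stretches are shown because the reads of both rows over them carry these letters or their complement. Each is printed 5′ to 3′ on the strand of the protein-coding gene, from GENCODE v29 transcripts (GRCh38), in lower case throughout. The ADAMTS9 stretch, at chr3:64561578-64561751 on the minus strand, is the whole overlap of 174 bases with ADAMTS9-AS1. The MMP9 stretches, at chr20:46013657-46013796 and chr20:46014124-46014274 on the plus strand, are 140 and 151 of the 430 bases that MMP9 shares with SLC12A5-AS1.
ADAMTS9 over ADAMTS9-AS1: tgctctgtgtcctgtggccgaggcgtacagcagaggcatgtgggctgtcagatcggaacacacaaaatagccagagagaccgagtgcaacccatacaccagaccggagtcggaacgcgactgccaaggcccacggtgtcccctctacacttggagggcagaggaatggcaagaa
MMP9 over SLC12A5-AS1, first stretch: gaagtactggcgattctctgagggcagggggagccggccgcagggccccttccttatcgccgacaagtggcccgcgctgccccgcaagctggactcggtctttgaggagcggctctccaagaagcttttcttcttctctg
MMP9 over SLC12A5-AS1, second stretch: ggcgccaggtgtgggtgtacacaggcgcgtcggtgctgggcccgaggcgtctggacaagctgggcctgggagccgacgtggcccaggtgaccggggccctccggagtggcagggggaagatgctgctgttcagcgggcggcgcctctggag

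Of the 10 rows, 7 passed the filter on low counts and were tested, with edgeR's quasi-likelihood test and Benjamini-Hochberg adjustment over 14184 rows; a row was called at an adjusted p under 0.05. In KO1 against WT, 2 were higher (SLC16A8 and VTN) and 3 lower (NPLOC4, MMP9 and ADAMTS9-AS1), where 23.6% of all tested rows were called, 10.4% higher and 13.3% lower. In KO2 against WT the same 5 were called in the same directions, where 29% of all tested rows were called, 13.6% higher and 15.4% lower. Over all tested rows, 13.5% were called in both lines in the same direction, 5.79% higher and 7.72% lower. In the average of KO1 and KO2 against WT, 2 of the 7 rows were higher and 3 lower, where 28.3% of all tested rows were called, 12.3% higher and 15.9% lower. The 2 lines share the WT libraries, so the 2 comparisons are not independent. Between the lines, 2 of the 7 rows were called, both lower in KO1 than in KO2 (SLC16A8 and SLC12A5-AS1), where 20.4% of all tested rows were called, 10.1% higher and 10.3% lower in KO1. The median log2 fold change of the 7 rows was −0.73 in KO1 and −0.58 in KO2, against 0.01 and 0.02 over all tested rows. The rows were chosen with earlier results of these data known, so their counts and median beside those of all rows are no test of the group. Where knockout and WT libraries of a row are said below not to overlap, the share of all tested rows so separated was not counted.

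**Figure D1:**
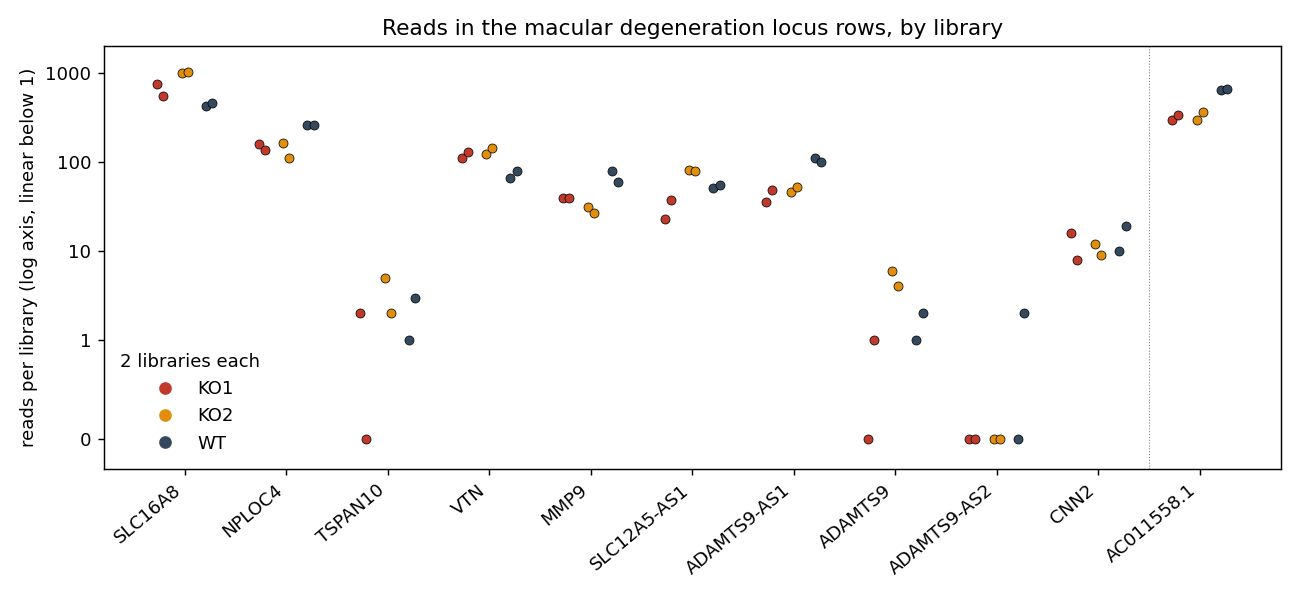
Read counts of the member rows in each library, on a log axis that is linear below 1, with KO1 and KO2 left of WT; each point is 1 library, and AC011558.1, over CNN2, stands on the right. SLC16A8 and VTN stood higher in all 4 knockout libraries than in either WT library, and NPLOC4, MMP9 and ADAMTS9-AS1 stood lower. The share of all tested rows with such a separation was not counted.

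SLC16A8 encodes a lactate transporter of the retinal pigment epithelium. Its row held 745 and 555 reads in KO1, 984 and 1030 in KO2, and 424 and 452 in WT, so no knockout library overlapped WT. Its level was 89.0 ± 14.7 CPM, the row's reads scaled to library size, in KO1, 119 ± 0.508 in KO2 and 56.9 ± 0.358 in WT (SD, n = 2 each). The log2 fold change by edgeR's quasi-likelihood test was 0.65 ± 0.09 (SE) in KO1 (adjusted p = 1.48e-06) and 1.07 ± 0.09 in KO2 (adjusted p = 1.15e-11), or 1.56-fold and 2.09-fold. The fit shares 1 estimate of spread over the 3 groups, so the KO1 SE does not reflect the wider KO1 spread. Leaving out 1 library gave 0.46 to 0.80 in KO1. The 2 lines also differed from each other: KO1 was lower than KO2 by a log2 fold change of −0.42 ± 0.09 (edgeR adjusted p = 4.47e-04); without KO1 replicate 2 this was −0.26, and relative to the medians of its 10 Mb −0.65, both still called.

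SLC16A8 lies on the minus strand at chr22:38078134-38084093, and 795 bases separate it from BAIAP2L2, on the same strand and upstream. BAIAP2L2 encodes a membrane-bending protein. Its row held 317 and 288 reads in KO1, 445 and 508 in KO2, and 241 and 206 in WT, the same order of groups as SLC16A8. It was higher by a log2 fold change of 0.51 ± 0.12 in KO1 (edgeR adjusted p = 1.56e-03) and 0.95 ± 0.12 in KO2 (edgeR adjusted p = 3.63e-08), and KO1 was again lower than KO2, by −0.44 ± 0.11 (edgeR adjusted p = 3.82e-03). Without WT replicate 2, the KO1 call of BAIAP2L2 was lost at a log2 fold change of 0.35. On the other side, PICK1, which encodes a scaffold protein, lies on the plus strand 2432 bases away and held 4 to 10 reads per library. The row AL031587.2, antisense over PICK1 and added after its values were seen, held 529 to 855 reads and went the other way, at −0.48 ± 0.08 in KO1 and −0.46 ± 0.08 in KO2 (−0.28 relative to the median of its 10 Mb, still called).

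NPLOC4 encodes a cofactor of the ATPase VCP, which pulls ubiquitin-marked proteins out of complexes. The NPLOC4 row held 159 and 135 reads in KO1, 162 and 111 in KO2, and 258 and 258 in WT. Every knockout library was below both WT libraries. The log2 fold change by edgeR's quasi-likelihood test was −0.73 ± 0.16 in KO1 (adjusted p = 6.77e-04) and −1.05 ± 0.16 in KO2 (adjusted p = 3.26e-06). KO1 against KO2 was 0.32 (95% interval −0.04 to 0.67) and was not called; leaving out 1 library gave 0.028 to 0.65, and without KO2 replicate 1 the value of 0.65 was called (edgeR adjusted p = 0.0202). The median log2 fold change of 59 rows in the same 10 Mb of chromosome 17 was −0.28 in KO1 and −0.37 in KO2; relative to it the NPLOC4 value was −0.45 in KO1, no longer called (edgeR adjusted p = 0.0594), and −0.67 in KO2, still called.

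TSPAN10 encodes a tetraspanin expressed in pigment cells. It lies on the plus strand, mostly within the span of NPLOC4, with 36 exonic bases in common, and held 2 and 0 reads in KO1, 5 and 2 in KO2, and 1 and 3 in WT. It was too low to test, and the groups overlapped. FAAP100, a Fanconi anaemia core protein and the nearest protein-coding gene on the other side of NPLOC4, had a log2 fold change of 0.47 in KO1 and 0.44 in KO2, neither called. PDE6G, a rod phosphodiesterase subunit, is the nearest on the TSPAN10 side and was not analysed here.

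VTN encodes vitronectin, an adhesion protein of blood and matrix that is also found in the deposits of macular degeneration. Its row held 111 and 129 reads in KO1, 121 and 142 in KO2, and 66 and 78 in WT, with every knockout library above WT. Its level was 16.5 ± 2.44 CPM in KO1, 15.5 ± 1.19 in KO2 and 9.34 ± 0.622 in WT (SD, n = 2 each). By edgeR's quasi-likelihood test the log2 fold change was 0.82 ± 0.20 in KO1 (adjusted p = 1.95e-03) and 0.73 ± 0.20 in KO2 (adjusted p = 4.11e-03). KO1 against KO2 was 0.09 (95% interval −0.29 to 0.46). Without KO1 replicate 2, the KO1 value was 0.66 (edgeR adjusted p = 0.0526).

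VTN, at chr17:28367276-28373091 on the minus strand, sits inside the span of SARM1, on the plus strand, with 0 exonic bases in common. SARM1 encodes an enzyme that breaks down NAD in injured axons. The rows around VTN did not all move with it. SARM1 held 2664 and 2794 reads in KO1, 1776 and 1869 in KO2, and 1932 and 2167 in WT, higher in KO1 (0.50 ± 0.07, edgeR adjusted p = 3.04e-07) and lower in KO2 (−0.30 ± 0.07, edgeR adjusted p = 5.96e-04). AC002094.2, over TMEM199 and added after its values were seen, was likewise higher in KO1 (0.32 ± 0.07) and lower in KO2 (−0.30 ± 0.08). SLC46A1, the proton-coupled folate transporter gene whose exons lie over SARM1, was higher in both lines, at 0.64 ± 0.06 and 0.56 ± 0.06. The median of 40 rows in the same 10 Mb was 0.46 in KO1 and 0.16 in KO2, and relative to it SARM1 in KO1 was 0.039, not called, AC002094.2 in KO1 was −0.13, not called, and SLC46A1 in KO1 was 0.18, still called. In KO2, SARM1 was then −0.47 and AC002094.2 −0.46, both still called. VTN was then 0.36 in KO1, no longer called (edgeR adjusted p = 0.218), and 0.57 in KO2, still called.

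**Figure D2:**
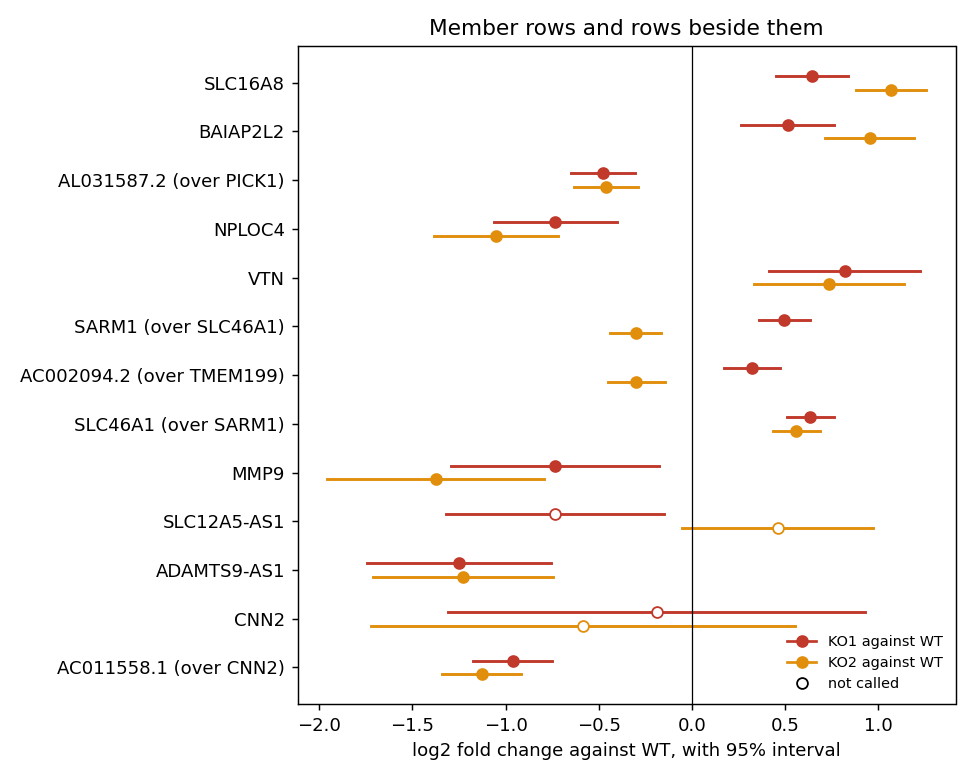
Log2 fold changes against WT (x axis) with 95% intervals from edgeR, for the tested member rows and rows beside them, KO1 above KO2; open points were not called. SLC16A8, BAIAP2L2 and VTN lie right of 0 in both lines, while SARM1 and AC002094.2 lie right of it in KO1 and left of it in KO2.

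MMP9 encodes a secreted gelatinase that cuts basement membrane collagen. Its row held 39 and 39 reads in KO1, 31 and 27 in KO2, and 78 and 59 in WT. No knockout library overlapped WT. By edgeR's quasi-likelihood test it was lower by a log2 fold change of −1.37 ± 0.29 in KO2 (adjusted p = 2.48e-04) and −0.74 ± 0.27 in KO1 (adjusted p = 0.0480). The KO1 call rests on a value close to the threshold. It was lost without KO1 replicate 1 (−0.69), without KO1 replicate 2 (−0.78), without WT replicate 1 (−0.47) and with DESeq2 (adjusted p = 0.210), and relative to the median of its 10 Mb (−0.57, edgeR adjusted p = 0.153). KO1 against KO2 was 0.64 (95% interval 0.01 to 1.26), with an edgeR adjusted p of 0.152.

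SLC12A5-AS1 is a non-coding antisense transcript that spans the ground between the end of MMP9 and the start of SLC12A5, a neuronal chloride exporter gene, sharing 430 exonic bases with MMP9 and 197 with SLC12A5. The row held 23 and 37 reads in KO1, 81 and 79 in KO2, and 51 and 55 in WT, so that KO1 lay below WT and KO2 above it. Against WT neither line was called, at −0.74 ± 0.29 in KO1 (edgeR adjusted p = 0.0614) and 0.46 ± 0.25 in KO2 (edgeR adjusted p = 0.186). Without KO1 replicate 2 the KO1 value was −1.16 and was called (edgeR adjusted p = 0.0179), and without KO1 replicate 1 it was −0.40. Between the lines it was called, with KO1 lower than KO2 by −1.19 ± 0.27 (edgeR adjusted p = 1.20e-03); without KO1 replicate 1 this was −0.85 (edgeR adjusted p = 0.0578). In KO2, then, MMP9 was low and SLC12A5-AS1 was high among the groups, while in KO1 both were at −0.74. Summed, the 2 rows gave −0.74 in KO1 (edgeR adjusted p = 0.00718) and −0.29 in KO2, not called; between the lines the sum was −0.44, not called. SLC12A5 itself held 19 to 33 reads and was not called in either line. ZNF335, a zinc finger gene upstream of MMP9, was not called either. NCOA5, a nuclear receptor coregulator gene beyond SLC12A5, held 10 and 13 reads in KO1, 17 and 21 in KO2, and 4 and 7 in WT, at 1.13 ± 0.63 in KO1 (not called) and 1.63 ± 0.59 in KO2 (edgeR adjusted p = 0.0341).

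ADAMTS9 encodes a secreted protease that cleaves proteoglycans such as versican. Its own row held 0 and 1 read in KO1, 6 and 4 in KO2, and 1 and 2 in WT, too few to test. The row of ADAMTS9-AS1, whose exons cover the ADAMTS9 stretch printed above, held 35 and 48 reads in KO1, 46 and 52 in KO2, and 110 and 99 in WT. Every knockout library was at or below 52 reads, and both WT libraries at or above 99. It fell by 1.25 ± 0.24 on the log2 scale in KO1 (edgeR adjusted p = 1.41e-04) and by 1.23 ± 0.24 in KO2 (edgeR adjusted p = 9.48e-05). KO1 against KO2 was −0.02 (95% interval −0.56 to 0.52). ADAMTS9-AS2, which overlaps the start of ADAMTS9 but shares 0 exonic bases with it, held 0 reads in all 4 knockout libraries, and 0 and 2 in WT. The nearest protein-coding genes, PRICKLE2 and MAGI1, held at most 15 reads per library and were not tested.

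CNN2 encodes calponin 2, an actin-binding protein. Its row held 16 and 8 reads in KO1, 12 and 9 in KO2, and 10 and 19 in WT. The groups overlapped, and neither line was called, at −0.19 ± 0.55 in KO1 (95% interval −1.31 to 0.93) and −0.58 ± 0.56 in KO2 (95% interval −1.72 to 0.55). The row AC011558.1, whose single exon of 338 bases lies antisense within the last exon of CNN2, held 293 and 339 reads in KO1, 296 and 359 in KO2, and 642 and 660 in WT. It was lower in every knockout library than in WT, by a log2 fold change of −0.96 ± 0.10 in KO1 (edgeR adjusted p = 3.47e-09) and −1.13 ± 0.10 in KO2 (edgeR adjusted p = 6.16e-11). It averaged 35.0 times the reads of the CNN2 row. ABCA7, a lipid transporter gene 1032 bases beyond CNN2, was at 0.39 ± 0.15 in KO1 (edgeR adjusted p = 0.0510, not called) and 0.44 ± 0.15 in KO2 (edgeR adjusted p = 0.0197), the KO2 call being lost without KO2 replicate 1 (0.39) or WT replicate 2 (0.38). TMEM259, on the other side, held 88 and 63 reads in KO1, 95 and 94 in KO2, and 32 and 75 in WT, with the WT libraries far apart; its KO2 call (0.69 ± 0.26) was lost without KO2 replicate 1 (0.66) or WT replicate 1 (0.25), and the value was 1.37 without WT replicate 2. Its KO1 value (0.58 ± 0.27, not called) was 1.26 without WT replicate 2 and was then called. Relative to the median of the 10 Mb, or with DESeq2, the KO2 call of TMEM259 was lost. AC004528.2, antisense over TMEM259 and added after its values were seen, held 7211 to 10229 reads, at −0.16 ± 0.06 in KO1 and −0.04 ± 0.06 in KO2. Its KO1 call was lost without KO1 replicate 2 (−0.087), WT replicate 1 (−0.15) or WT replicate 2 (−0.18), and the value was −0.25 without KO1 replicate 1.

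**Figure D3:**
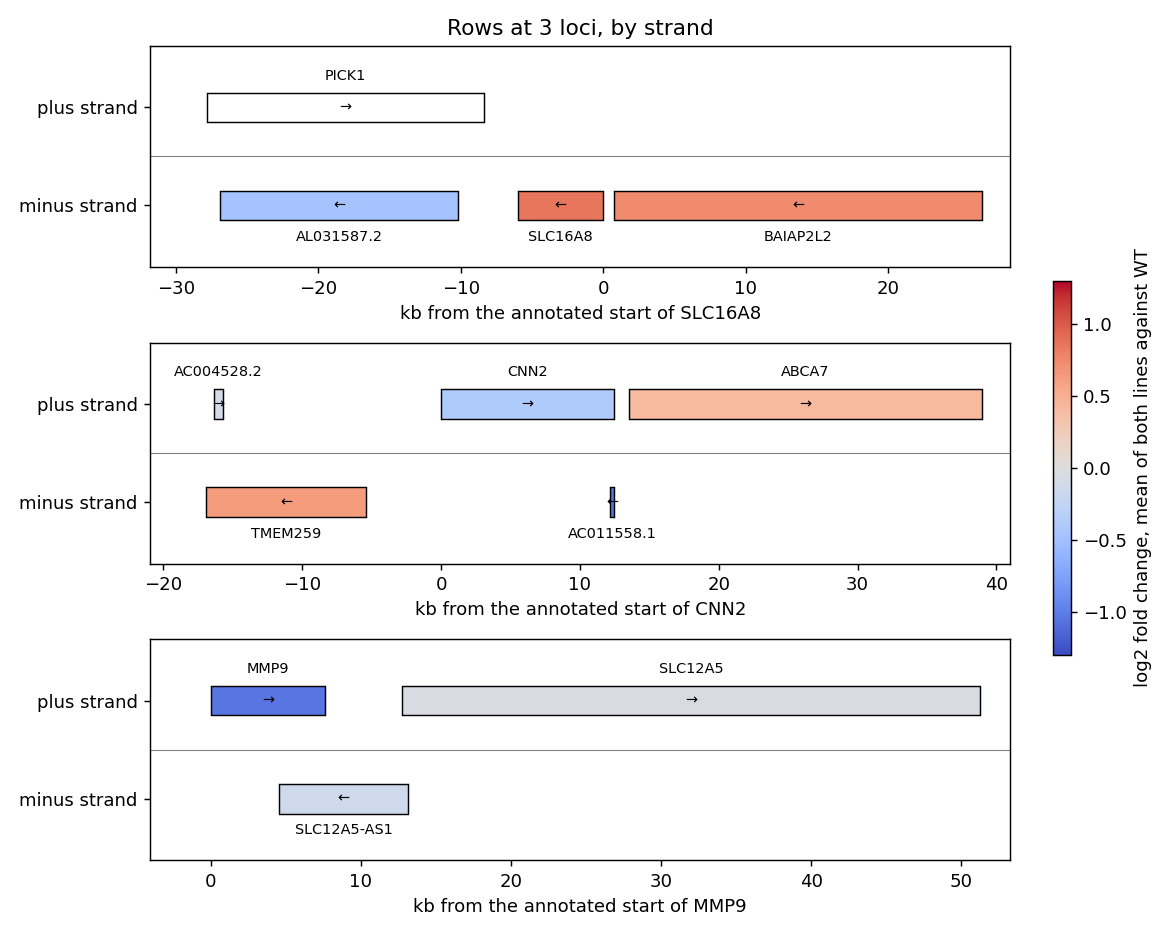
Rows at the SLC16A8, CNN2 and MMP9 loci drawn to scale by strand, with distance in kb from the annotated start of the named gene on the x axis; arrows give the direction of transcription, colour is the log2 fold change averaged over KO1 and KO2, each against WT, and PICK1 is white because it was not tested. BAIAP2L2 has the colour of SLC16A8 beside it, and the short AC011558.1 row lies within the end of CNN2.

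Per kilobase of annotated exon, SLC16A8 was the highest of the 10 rows in each group, at 40.4 CPM per kb in KO1, 54.1 in KO2 and 25.8 in WT. VTN followed at 6.81 in KO1, 6.41 in KO2 and 3.85 in WT. In WT, VTN, MMP9 (3.84), NPLOC4 (3.51), SLC12A5-AS1 (3.07) and ADAMTS9-AS1 (1.96) followed one another closely. MMP9 differed from VTN and NPLOC4 there by less than the spread of its own WT libraries (8.96 ± 2.21 CPM before division by length). In KO2, VTN was above SLC12A5-AS1 (4.23), NPLOC4 (1.70), MMP9 (1.47) and ADAMTS9-AS1 (0.834). AC011558.1, over CNN2, was at 129 in KO1, 115 in KO2 and 251 in WT. Annotated exon lengths were used, and no test was made between rows. The order depends on these lengths. The authors' gene size was 198 bases for VTN and 447 for ADAMTS9-AS1, against 2427 and 6949 annotated, and 2203 in both for SLC16A8. With the authors' sizes VTN would stand above SLC16A8 in each group.

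The rows whose pattern over the 6 libraries came closest were found by the root-mean-square difference in log2 CPM centred on WT, among 6424 rows. For SLC16A8 they were CHSY1 (0.0980) and PCNX3 (0.105), for NPLOC4 RPL6P24 (0.0925) and RPGRIP1 (0.114), for VTN RAD52 (0.0657) and AP2B1 (0.0698). For SLC12A5-AS1 they were STK19 (0.138) and CNOT7 (0.139), and for ADAMTS9-AS1 MT-ND2 (0.120) and AC009831.1 (0.131). MT-ND2 is a mitochondrial transcript of complex I.

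In the authors' deposited table, which sets the 4 knockout libraries against the 2 WT libraries, 6 of the 10 rows appeared, and 4 were at q under 0.05. The authors' deposited table gave SLC16A8 a log2 fold change of 0.89 (q = 0.0207), NPLOC4 −0.88 (q = 0.0274), VTN 0.81 (q = 0.0288) and ADAMTS9-AS1 −1.20 (q = 0.00843). In the authors' deposited table MMP9 was at −1.01 (q = 0.0552) and SLC12A5-AS1 at −0.09 (q = 0.912).

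Other loci of macular degeneration were read by row name and through rows on the opposite strand. Over all tested rows, 13.5% were called in both lines in the same direction. Of 14 complement genes, 2 rows were tested and none was called in both lines. CLU, a complement-inhibiting chaperone gene, held 27 and 27 reads in KO1, 68 and 61 in KO2, and 19 and 24 in WT, and was called in KO2 at 1.45 ± 0.31. C2, a complement protease gene, was lower in KO2 at −1.04 ± 0.29, but its reads ran from 52 to 188 over the 6 libraries, and the KO2 value was −1.93 without KO2 replicate 1 and −0.47, not called, without KO2 replicate 2. Of 14 matrix genes, 8 rows were tested by name and none was called in both lines. AL136131.3, over the vascular growth factor gene VEGFA, held 696 and 690 reads in KO1, 326 and 342 in KO2, and 393 and 458 in WT. It was called higher in KO1 (0.79 ± 0.09) and lower in KO2 (−0.48 ± 0.10). The VEGFA row itself was at 0.10 ± 0.27 in KO1, not called, and at 0.67 ± 0.25 in KO2, called higher (edgeR adjusted p = 0.0394). Of 6 lipid genes, 3 rows were tested and none was called in both lines. A further list of 36 genes held other loci and neighbours of member genes, and 18 of its rows were tested by name. Of these, 3 were higher and 1 lower in both lines, where 5.79% of all tested rows were higher and 7.72% lower in both. These were BAIAP2L2, POLDIP2 (0.49 and 0.37 in KO1 and KO2), a mitochondrial and nuclear protein gene, RORB, a retinal nuclear receptor gene with 4 and 3 reads in KO1, 35 and 36 in KO2, and 0 in both WT libraries, and KMT2E (−0.51 and −0.73), a chromatin regulator gene. Through the opposite strand, SLC46A1 was higher and AL031587.2 lower in both lines. BAIAP2L2, SLC46A1 and AL031587.2 are the rows described above beside SLC16A8 and VTN, so they add no further locus. The median log2 fold change of the mean of both lines was 0.06 over the 18 rows, against 0.00 over all tested rows. The RORB call in KO1 was lost without KO1 replicate 1 or either WT library, and that of POLDIP2 in KO2 without KO2 replicate 1 (0.29), WT replicate 1 (0.37) or WT replicate 2 (0.38). Relative to the median of the 10 Mb around each row, POLDIP2 was 0.038 in KO1 and 0.21 in KO2, and KMT2E was −0.20 in KO2, none of them called. With DESeq2 the calls of RORB in KO1, POLDIP2 in KO2 and C2 in KO2 were lost.

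Partners of the member genes moved in single rows. Over all tested rows, 10.4% were called higher and 13.3% lower in KO1, and 13.6% higher and 15.4% lower in KO2. In both lines in the same direction, 13.5% were called. The counts in each list stand beside these shares. A list of 19 genes held monocarboxylate transporters, their partners and the SLC16A8 neighbours BAIAP2L2 and PICK1, and 10 of its rows were tested by name. AC009005.1, over BSG, the chaperone gene of monocarboxylate transporters, held 49 and 36 reads in KO1, 55 and 53 in KO2, and 124 and 266 in WT, lower at −2.10 ± 0.25 and −1.97 ± 0.24. The BSG row itself, named after its values were seen, did not show a change of that size. It held 150 and 152 reads in KO1, 220 and 240 in KO2, and 217 and 255 in WT. Among 13 VCP cofactor genes, ZFAND2B was lower in both lines by name, at −0.46 and −0.71, and AC000068.3, over UFD1, the partner of NPLOC4, at −0.82 ± 0.13 and −1.18 ± 0.13. Of 6 tetraspanin genes of the C8 subgroup, 3 rows were tested by name and none was called. Among 11 genes of vitronectin receptors and partners, ITGB1, an integrin gene, was lower at −1.10 ± 0.27 and −1.07 ± 0.26. C10orf55, over the plasminogen activator gene PLAU, was lower at −1.82 ± 0.28 and −1.07 ± 0.25. Of the 7 rows of this list tested by name, 0 were higher and 2 lower in KO1, and 3 were higher and 1 lower in KO2. Of 20 genes of metalloproteinases and their inhibitors, MMP24 was lower at −0.45 and −0.26, and AC090578.1, over MMP16, higher at 1.39 and 1.51. Of 20 ADAMTS genes and substrates, 7 rows were tested by name and none was called in both lines; VCAN-AS1, over the versican gene VCAN, was higher at 1.62 ± 0.09 and 0.31 ± 0.09, and AC084855.1, over ADAMTS17, at 0.41 and 0.74. Of 10 calponin and actin genes, 8 rows were tested by name and none was called. Through the opposite strand, 3 rows of this list were tested and none was called in both lines. Of these, 0 were higher and 1 lower in KO1, and 1 was higher and 2 were lower in KO2. Calls were lost on leaving out 1 library for ZFAND2B in KO1 (−0.33 without KO1 replicate 1, −0.52 and −0.39 without WT replicates 1 and 2), MMP24 in KO2 (−0.18 without KO2 replicate 1, −0.19 without WT replicate 1), AC084855.1 in KO1 (0.33 without KO1 replicate 1, 0.43 and 0.38 without WT replicates 1 and 2) and VCAN-AS1 in KO2 (0.22 without WT replicate 2). Relative to the median of the 10 Mb around each row, AC084855.1 was 0.15 in KO1 and 0.33 in KO2, ZFAND2B −0.27 in KO1 and VCAN-AS1 0.24 in KO2, none of them called, and AC000068.3 was −0.78 in KO2, still called. With DESeq2 the KO1 calls of ZFAND2B and AC084855.1 were lost.

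The cell type is labelled kidney. Rows of 14 kidney epithelium markers summed to 9.48 to 14.4 CPM in KO1, 8.51 to 10.5 in KO2 and 14.8 to 17.7 in WT, with 2 rows at 0 throughout. Those of photoreceptor markers summed to 157 to 158 CPM in KO1, 145 to 156 in KO2 and 148 to 156 in WT, with 4 of 12 rows at 0. Since rows may hold reads of the opposite strand, these sums are not levels of the marker genes and do not rank the cell types. Of 17 pigment epithelium markers, 5 rows were tested by name. Of these, 4 were lower and 0 higher in KO1, where 13.3% of all tested rows were lower and 10.4% higher. In KO2, 2 were lower and 2 higher, where 15.4% of all tested rows were lower and 13.6% higher. The 2 lower in both lines, where 7.72% of all tested rows were, were SERPINF1 (−0.38 and −0.63), a secreted neurotrophic factor gene, and PMEL (−0.34 and −0.21), a melanosome protein gene. The 2 higher in KO2 were the keratin genes KRT8 (−0.34 ± 0.06 in KO1 and 0.29 ± 0.06 in KO2) and KRT18 (0.44 ± 0.21 in KO1, not called, and 1.57 ± 0.19 in KO2), named after their values were seen. The list summed to 5872 to 6664 CPM in KO1, 6867 to 6919 in KO2 and 7253 to 7295 in WT, and the BEST1 row, over the ferritin gene FTH1, held most of it with 37659 to 49759 reads. AC099314.1, over the cadherin gene CDH1, was lower at −1.72 and −1.53. Of 13 photoreceptor markers, 6 rows were tested by name and GNAT1, with at most 19 reads, was lower in both lines. Among the kidney epithelium markers, 3 rows were tested by name and none was called in both lines; AC243773.1, over LHX1, held 1 and 0 reads in KO1, 0 and 7 in KO2, and 17 and 13 in WT. The PMEL call in KO2 was lost without KO2 replicate 1 (−0.21), KO2 replicate 2 (−0.20) or WT replicate 1 (−0.16), and the GNAT1 call in KO1 without KO1 replicate 2 (−1.57), WT replicate 1 (−2.02) or WT replicate 2 (−2.20). Relative to the median of the 10 Mb around each row, PMEL in KO2 was −0.16, not called, and SERPINF1 in KO2 −0.38, still called.

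**Figure D4:**
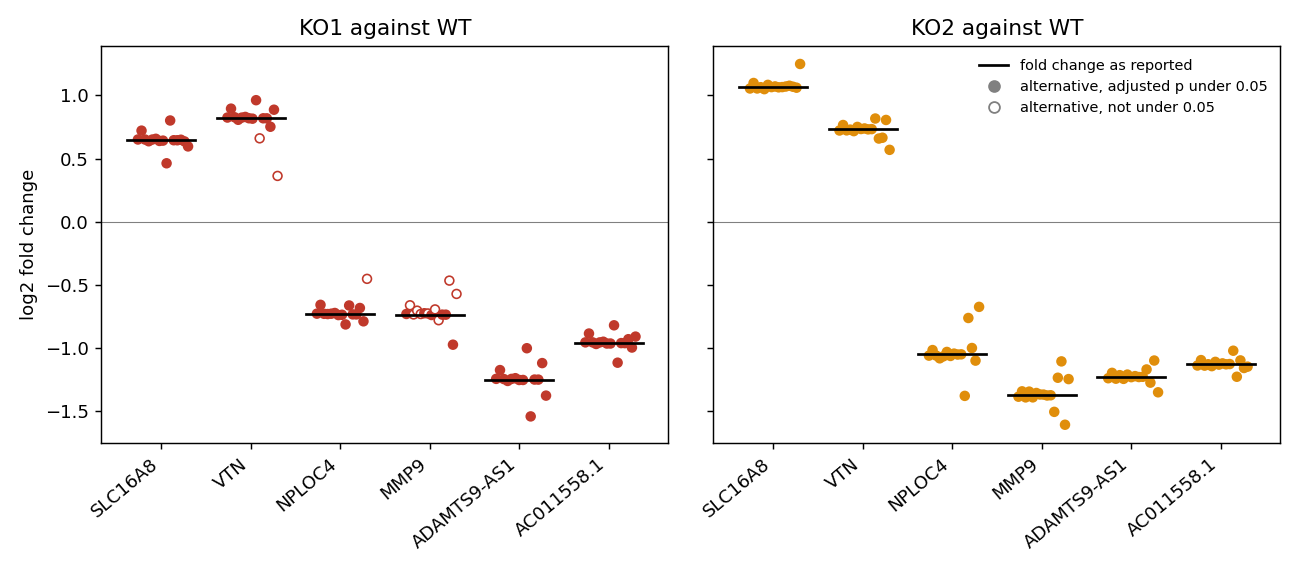
Log2 fold change (y axis) of 6 rows against WT under each alternative processing, for KO1 on the left and KO2 on the right; black lines are the values as reported, filled points alternatives with an adjusted p under 0.05, open points the others. SLC16A8, ADAMTS9-AS1 and AC011558.1 stayed called in both lines under each alternative drawn, and MMP9 lost its call in KO1 under many.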

How the data were processed

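RNA was read from 6 HEK293T libraries, 2 per group. The authors deposited whole-number counts per gene symbol; per the submitters' processing notes reads were handled with STAR 2.7.1a, Trim Galore, limma and HTSeq 0.6.1p1 on builds hg38 and GRCh38.p6, and neither the annotation version nor the counting strand is given in the sources used here. The authors' second deposited table holds FPKM, log2 fold changes, p-values and q-values, a t statistic (a score) and a gene size, per the file headers; its comparison pools both lines. The gene size matched GENCODE v29 exonic length for 27.9% of 11348 rows, so annotated lengths were used.

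Counts were tested with edgeR 4.0.16 (R 4.3.3): TMM factors, filterByExpr, 1 quasi-likelihood fit of 3 groups, and adjustment over 14184 rows, with a threshold of 0.05. SE is the fold change divided by the root of F. The method was tested on simulated data. Rows were placed by symbol on GENCODE v29 (56195 of 59087). Alternatives tried were DESeq2 1.42.0, limma-voom (limma 3.58.1), upper-quartile or RLE factors, no filter on low counts, a mean count of at least 20, a replicate block, the compared libraries only, each library left out, offsets by 10 Mb bin, and rows summed over both strands. The members and lists were chosen with earlier results of these data known. Named rows are the members, genes sharing their exons, the nearest protein-coding genes, up to 4 rows of each list called in both lines (else up to 2 by smallest p), and the 2 closest rows by pattern; 1 row this rule names is not reported here.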

Additional observations from a re-analysis of the deposited data

Results flagged for a closer look

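KO1 differed from KO2 in 2 of the 7 tested rows. Each knockout is 1 line, so an effect of the knockout and a difference between the lines themselves cannot be told apart. SLC16A8 was higher in both lines and KO1 was below KO2 by a log2 fold change of −0.42 (edgeR adjusted p = 4.47e-04). SLC12A5-AS1 was below WT in KO1 and above WT in KO2, neither called, and KO1 was below KO2 by −1.19 (edgeR adjusted p = 1.20e-03).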

How the results depend on the processing

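Over the member rows, 387 of the alternative values kept their direction and side of the threshold; 17 lost a call, 7 gained one and 13 changed sign. The 13 values that changed sign were not called. These tallies include rows summed over both strands, where the value of the pair was set beside each of its rows. The gained calls of CNN2 (−0.94 in KO1, −1.11 in KO2, −1.03 in the mean of both lines) are such sums. Their reads are mostly those of AC011558.1, which averaged 35.0 times the CNN2 row. Gained calls of SLC12A5-AS1 in the mean of both lines, and 1 in KO1, are sums with MMP9. Upper-quartile factors gave ADAMTS9-AS1 in KO1 against KO2 as 0.022, and changed the share of higher calls: 1941 higher and 1549 lower in KO1, against 1469 and 1881, and 1019 and 901 in both lines, against 821 and 1095. DESeq2 called 1272 rows in both lines, against 1916. Offsets by 10 Mb bin, with fewer rows tested, called 2028 rows in KO1 against 3350, 2282 in KO2 against 4118, 2270 in the mean of both lines against 4009, 1613 in KO1 against KO2 against 2889, and 1047 in both lines against 1916; of the 6 members they could test (ADAMTS9-AS1, with 6 rows in its bin, got no value) they called 1 in KO1, 1 in both lines and 3 in the mean of both lines, against 5 of 7 each. The cause was not tested. Under the same offsets AC002094.2 in KO1 was −0.13, SLC12A5-AS1 in the mean of both lines 0.011 and VTN in KO1 against KO2 −0.21. With rows summed over both strands, SLC12A5-AS1 in KO2 was −0.29 and MMP9 in KO1 against KO2 −0.44. Leaving out 1 library, where the lone library is assumed to vary like the other groups, gave 1 to 3 members called between the lines and 3 to 5 in both lines. Such fits ranged for C2 in KO1 over −1.35 to 0.065, SLC12A5-AS1 in the mean of both lines over −0.35 to 0.031, ADAMTS9-AS1 between the lines over −0.31 to 0.23, VTN between the lines over −0.073 to 0.23, SLC12A5 in KO2 over −0.16 to 0.31, and CNN2 over −0.72 to 0.28 in KO1, −0.73 to 0.083 in the mean and −0.13 to 0.77 between the lines. A replicate block ended the MMP9 call in KO1 (edgeR adjusted p = 0.0563), leaving 4 members called in KO1 and 4 in both lines. Taken over all tested rows, same-numbered libraries shared no deviation (correlations −0.02, −0.03 and −0.02). Such a correlation cannot tell whether a smaller set of rows was paired. The compared libraries alone were not fitted for the mean of both lines. Depth limits TSPAN10, ADAMTS9, ADAMTS9-AS2 and CNN2, at 19 reads or fewer per library.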
